A study of Mus musculus with 11 samples.

Results

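Cajal-Retzius cells, the Reelin-secreting neurons of the cortical marginal zone, were 129 of the 16335 cells kept from 2 single-cell RNA-seq libraries of mouse dorsal cortex at E14.5. One library came from a single wild-type (WT) embryo and the other from a single Syncrip conditional knockout (cKO) littermate, in which Emx1-Cre recombines loxP sites around exons 2 to 4 of Syncrip, a gene for an RNA-binding protein. Emx1-Cre acts in dorsal telencephalic progenitors and the lineage they give rise to, and how many of the Cajal-Retzius cells carried the deletion was not measured. A cell was counted as a member when its barcode had at least 1000 detected genes and at most 10% mitochondrial molecules, at least 10 unique molecules (UMIs) of Reln, at least 2 UMIs of Trp73, Lhx5 and Ndnf together, and at most 1 UMI of Dlx1, Dlx2, Dlx5 and Dlx6os1 together. This gave 48 members of 7554 WT cells and 81 of 8781 cKO cells. The WT members held 837327 UMIs with a median of 16366 per cell, and the cKO members held 1187712 with a median of 14435, against medians of 12252 and 11540 in all other cells. With 1 embryo per genotype no test between genotypes was possible, and the 2 embryos also differed in sex. The intervals given below are exact 95% intervals that cover counting error only. So do the upper limits given for a count of 0, which are set at 3 counts.

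Cajal-Retzius cells are early-born glutamatergic neurons that arise mostly at the edges of the pallium, such as the cortical hem, septum and the pallial-subpallial boundary, and spread over the cortical surface by tangential migration. There they secrete Reelin, which binds the receptors Vldlr and Lrp8 (ApoER2) on migrating neurons, leads to phosphorylation of the adaptor Dab1 and guides the layering of the cortex. The p53 family member Trp73 and the LIM-homeodomain factors Lhx1 and Lhx5 are known regulators of these cells, and most of them die after birth.

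The values that chose the members are given as a description only. Reln, the secreted ligand, ranged from 13 to 315 UMIs per WT member with a median of 110.5, and from 13 to 329 per cKO member with a median of 84. Trp73, Lhx5 and Ndnf together had medians of 15.5 and 12 UMIs per cell, and all 3 genes were present in 92 of 129 members. Few cells lay near the limits. Reln was between 10 and 14 UMIs in 1 WT and 3 cKO members, whereas 1 WT and 3 cKO cells met the other conditions with 5 to 9 Reln UMIs. The sum of Trp73, Lhx5 and Ndnf was exactly 2 in 3 WT and 2 cKO members, and it was 1 in 1 WT and 3 cKO cells that met the other conditions. In all, 112 WT and 145 cKO cells had at least 10 Reln UMIs, and 53 and 51 of these carried 2 or more UMIs of the Dlx genes, the markers of cells from the ganglionic eminences (GE). Only 1 cell, in the cKO library, met the other 2 gene conditions and exceeded the Dlx limit. Another 11 WT and 13 cKO cells had the Reln UMIs with at most 1 UMI of the Dlx genes and at most 1 of Trp73, Lhx5 and Ndnf.

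**Figure D1:**
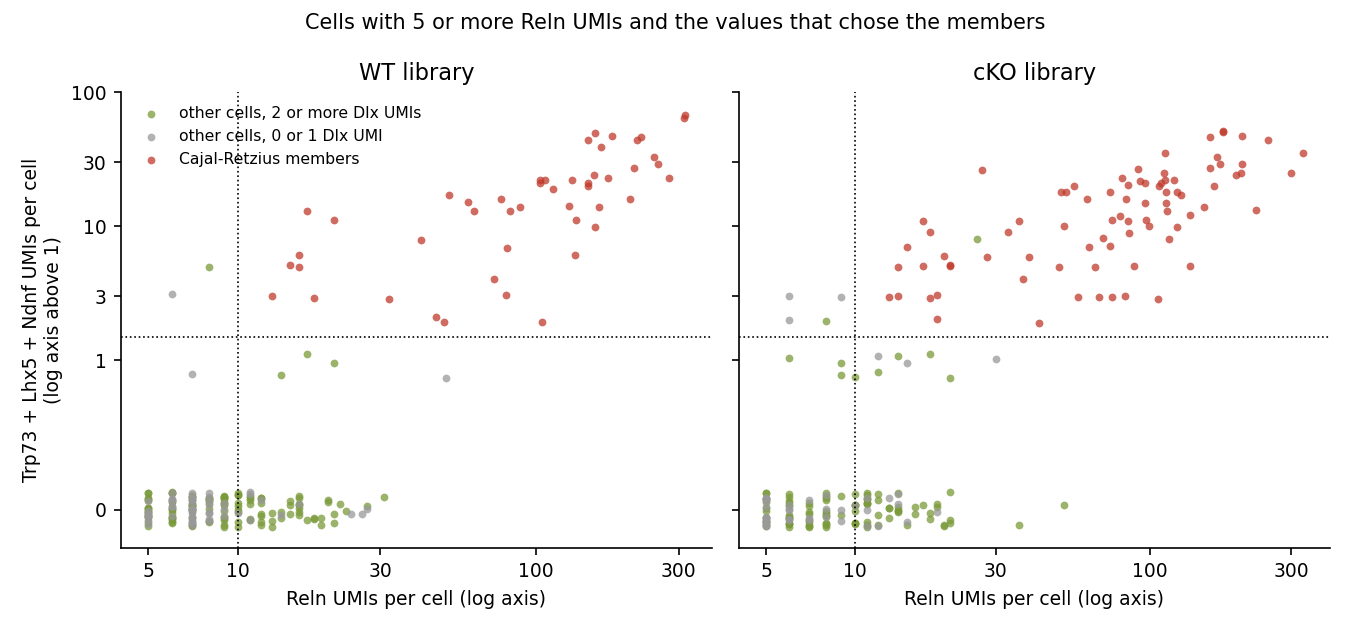
Each point is a cell with at least 5 Reln UMIs, plotted by its Reln UMIs (x, log axis) and its summed Trp73, Lhx5 and Ndnf UMIs (y, log axis above 1), with the limits as dotted lines, in the WT (left) and the cKO library (right). The members (red) reach 315 and 329 Reln UMIs, and most other cells with 10 or more Reln UMIs have 2 or more Dlx UMIs (green).

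The label was checked against genes outside the rule. When all kept cells of both libraries were clustered without the rule genes, 126 of 129 members (97.7%) fell into 1 of 25 clusters. That cluster also held 32 cells that were not members, with a median of 3016 UMIs against 15370.5 in the members inside it. The 3 members outside it were all from the cKO library. Calb2 and Cacna2d2, markers named with the label but not used by the rule, were present in 43 of 48 WT and 56 of 81 cKO members and in 47 of 48 WT and 78 of 81 cKO members, respectively. Some markers of microglia (Csf1r, C1qa, Tyrobp), meningeal fibroblasts (Col1a2, Col3a1, Dcn, Lum) and pericytes (Pdgfrb, Kcnj8, Abcc9) had 0 UMIs in the members of both libraries. In WT and cKO members, 5 and 4 of 7 microglial, 6 and 5 of 7 meningeal and 3 and 3 of 6 pericyte genes were at 0. The 7 microglial genes summed to 14.3 and 6.74 UMIs per 1000000 UMIs (CPM) in WT and cKO members, led by P2ry12, the 7 meningeal genes to 3.58 and 1.68, led by Col1a1, and the 6 pericyte genes to 78.8 and 54.7, nearly all from Rgs5, which 25 of 48 WT and 33 of 81 cKO members held. The 6 endothelial genes summed to 5.97 CPM in the WT and 125 CPM in the cKO members, led by Cldn5, and 143 of the 148 cKO UMIs came from 1 of the members outside the main cluster. The 6 red blood cell genes were at 65.7 and 75.8 CPM, under their 493 and 660.1 CPM in all other cells. Of the 9 genes that mark GE-derived cells, 4 of which the rule used, 4 were at 0 in the WT members, and the sum was 27.5 and 96.8 CPM, most of it Erbb4. At least 5 UMIs of Neurod2 and Neurod6, which mark cortical excitatory neurons, were present in 5 WT and 10 cKO members, and 6 WT and 3 cKO members were marked as likely doublets by Scrublet, a program that finds barcodes resembling 2 merged cells. They were kept. The libraries shared 22 barcode sequences, none of them a member.

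Among the 6276 genes compared with all other cells (those, rule genes apart, whose CPM averaged over the members and all other cells was at least 25 in both libraries), 468 (7.46%) were at least 2-fold higher and 501 (7.98%) at least 2-fold lower in Cajal-Retzius cells of both libraries. Because of the level filter, 138 genes among the higher and 199 among the lower could have entered the comparison only with a difference of that size, so the counts, here and for each gene list below, are descriptions without a test. Fold changes are quoted from whichever library was nearer to no change, and a gene said to differ by less than 2-fold did so in both libraries.

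The cell-type markers outside the rule stood far above their level in other cells. Calb2, the calcium-binding protein calretinin (chromosome 8, 110137502 to 110168210, minus strand, GRCm38), was at 681 (626 to 739) CPM in WT and 465 (427 to 505) CPM in cKO members, against 0.809 and 0.754 CPM in excitatory neurons (at least 5 UMIs of Neurod2 and Neurod6, at most 1 Dlx UMI) and 2.16 and 1.35 CPM in GE-derived cells (at least 5 Dlx UMIs) of the WT and cKO library. The level was 433-fold that of all other cells, a log2 ratio of 8.76 that was 7.78 with each cell given the same weight. Cacna2d2, an auxiliary subunit of voltage-gated calcium channels (chromosome 9, 107399612 to 107529343, plus strand), was at 665 (611 to 723) CPM and 463 (425 to 503) CPM and 66.6-fold above all other cells. It was also detected in GE-derived cells at 30.5 and 25.1 CPM. After each cell was thinned to 5000 UMIs, which left out 6 WT and 9 cKO members, Cacna2d2 had a UMI in 92.9% and 88.9% of the members, against 1.18% and 1.41% of excitatory neurons and 12.8% and 12.5% of GE-derived cells. Calb2 was in 80.95% and 66.7% of thinned members and in 0.311% and 0.241% of thinned excitatory neurons and 0.359% and 0.414% of thinned GE-derived cells. The unthinned shares in the members were 89.6% and 69.1%, and the median depth was 13425 and 12808 UMIs in excitatory neurons and 9208 and 8457 in GE-derived cells.

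Transcription factors of the Cajal-Retzius lineage followed the same pattern, with exceptions. Of 11 genes, 9 reached the level needed for the comparison, 6 were at least 2-fold higher and 2 at least 2-fold lower in both libraries. The shares over all genes compared were 7.46% and 7.98%, and 3 of those called here could pass the filter only with such a difference. The higher genes were Lhx1, Ebf2, Ebf3, Nhlh2, Tbr1 and Nr2f2, and the lower ones were Eomes and Nr2f1. Lhx1, a LIM-homeodomain factor, was at 269.9 (236 to 307) CPM in WT and 333 (301 to 368) CPM in cKO members against at most 0.404 CPM in all other cells, and with Fibin it had the largest fold of the named genes. Lhx1 or Lhx5 was present in 121 of 129 members. The helix-loop-helix factors of the early B-cell factor family differed among themselves. Ebf2 was at 158 and 213 CPM in WT and cKO members and Ebf3 at 289 and 391.5 CPM, 105-fold and 77.9-fold above all other cells, whereas Ebf1 was at 83.6 and 79.99 CPM, close to 77.5 and 79.8 CPM in all other cells and below the 229 and 246 CPM of GE-derived cells. Nhlh2, a neuronal helix-loop-helix factor, was at 957 and 883 CPM and 48.2-fold higher, while its relative Nhlh1 was at 37.02 and 15.997 CPM against 14.46 and 16.2 CPM. The nuclear receptors Nr2f1 and Nr2f2 (COUP-TFI and COUP-TFII) lay on opposite sides. Nr2f2 was at 1035 and 1192 CPM in members and 34.7 and 79.6 CPM in all other cells, and Nr2f1 at 47.8 and 63.1 CPM in members and 238 and 339 CPM in all other cells. Tbr1, a T-box factor shared with deep-layer neurons, was 2.43-fold higher than in all other cells, but against excitatory neurons alone the nearer log2 ratio was 0.80, which is less than 2-fold. The homeodomain gene Barhl2 was below the level filter at 46.6 and 42.1 CPM, with 39 and 50 UMIs in 23 of 48 WT and 37 of 81 cKO members, and it was at 0.0712 and 0.128 CPM elsewhere.

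**Figure D2:**
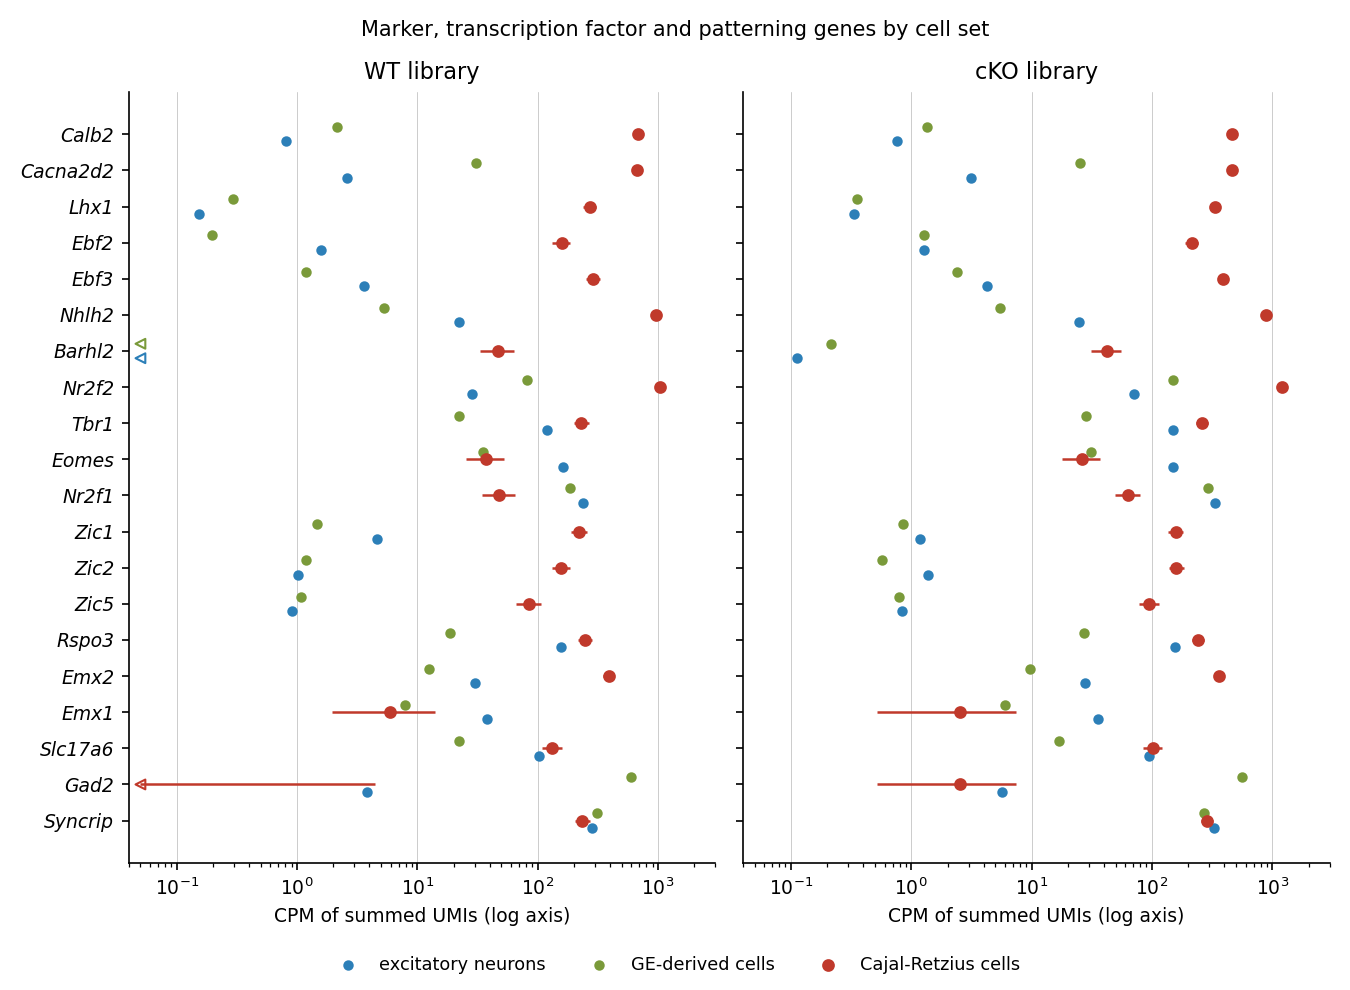
CPM of the summed UMIs (x, log axis) of 20 genes in Cajal-Retzius cells (red, with exact 95% Poisson intervals), excitatory neurons (blue) and GE-derived cells (green) of the WT (left) and cKO library (right), with open triangles at the left edge for values under 0.05 CPM. Lhx1, Ebf2, Ebf3, Nhlh2, Calb2 and the Zic genes are far higher in the members than in both other sets, Emx1 and Nr2f1 are lower in the members than in excitatory neurons, and Syncrip lies between 235 and 325 CPM in every set.

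Lhx1 and the long noncoding RNA Lhx1os were both among the genes with the highest fold, and they lie head to head. Lhx1 (chromosome 11, 84518284 to 84525535, minus strand) and Lhx1os (chromosome 11, 84525660 to 84535831, plus strand) do not overlap, and their RefSeq start sites are 126 bases apart, with 66.4% G and C between them. Lhx1os was at 215 and 218 CPM in WT and cKO members and at 0.315 and 0.468 CPM in all other cells. A stretch of 30 bases between the starts is shown because both genes read away from it, in the direction of Lhx1, at chr11:84525576-84525605 on the minus strand, with capitals marking a CCAAT box (in reverse, 68 bases before the Lhx1 start) and the core of a cAMP response element, TGACGT (50 bases before it).
Lhx1 and Lhx1os, between the starts: ctgATTGGtcacagactgccgTGACGTcgg
Promoter windows of 250 bases before to 50 after the start (RefSeq, GRCm38.p6) were at hand for 12 of 19 genes, the 4 rule markers and the 15 genes with the largest fold. On either strand, TGACGT was in 4 of these 12 (Lhx1, Lhx1os, Car10 and Ebf3) and in 8.37% of all 27025 genes, but Lhx1 and Lhx1os share 1 stretch and count for both. CCAAT was in 2 (Lhx1 and Lhx1os) against 41.1% of all genes, and CAGCTG in 2 against 18.3%. TAATTA, a core bound by homeodomain proteins, and the palindromic motif of the early B-cell factors were in none of the 12 genes and in 6.12% and 1.06% of all genes. A match of letters is a description of sequence.

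Of the genes of the pallial edges, those of the Zic family were present in most members. Of 15 genes, 4 reached the level needed for the comparison, 4 were at least 2-fold higher and 0 at least 2-fold lower in both libraries, namely Rspo3, Zic1, Zic2 and Zic5. For 3 of these 4 the filter could be passed only with such a difference, and 7.46% of all genes compared were higher. Zic1, Zic2 and Zic5, zinc-finger factors of the dorsal midline and septum, were at 221 and 157, 156 and 159 and 84.8 and 95.1 CPM in WT and cKO members and at no more than 8.34 CPM in all other cells. At least 1 UMI of Zic1 to Zic5 was found in 40 of 48 WT and 71 of 81 cKO members, and the 18 members without one were shallow, with a median of 3938 UMIs. Rspo3, a secreted enhancer of Wnt signalling, was 2.09-fold higher in the members. The hem gene Lmx1a was below the level filter at 31.1 and 31.2 CPM, in 16 of 48 WT and 19 of 81 cKO members, against 0.122 and 0.147 CPM in all other cells. Wnt3a, made in the hem itself, and Dbx1, made in the progenitors of the septum and the pallial-subpallial boundary, had 0 UMIs in members of both libraries, which allows up to 3.58 and 2.53 CPM.

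Patterning genes of the telencephalon were in part higher in the members, led by Emx2. Of 10 genes, 9 reached the level needed for the comparison, 3 were at least 2-fold higher and 0 at least 2-fold lower in both libraries. Among all genes compared, 7.46% were higher and 7.98% lower, and 1 of the 3 could pass the filter only with such a difference. Emx2 was at 389 and 364 CPM in members and 34.4 and 33.3 CPM in all other cells, and Dmrta2 and Dmrt3, doublesex-related factors of the medial pallium, were 3.22-fold and 5.07-fold higher. Emx1, whose locus drives Cre in the cKO embryo, was under the level filter with 5 and 3 UMIs in the members and 38.1 and 35.6 CPM in excitatory neurons. Nfia, Nfib and Nfix, nuclear factor I genes, differed by less than 2-fold.

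Genes of cortical excitatory neurons were lower as a group. Of 14 genes, 14 reached the level needed for the comparison, 0 were at least 2-fold higher and 12 at least 2-fold lower in both libraries. The share lower over all genes compared was 7.98%, and 5 of the 12 could pass the filter only with such a difference. Neurod6 was at 95.5 and 155 CPM in WT and cKO members against 1253 and 1202 CPM in excitatory neurons, which were chosen by Neurod2 and Neurod6. Sox5, a deep-layer factor, was at 117 and 359 CPM against 1936 and 2341 CPM, and Mef2c at 10.7 and 36.2 CPM against 274 and 233 CPM. Bhlhe22 lay on the other side, at 276 and 291 CPM in members and 150.3 and 135 CPM in all other cells, short of 2-fold in the WT library. Tle4, a deep-layer gene, was not called either. Markers of apical progenitors were lower in 4 of 5 genes compared, with the radial glia gene Fabp7 at 38.2 and 31.2 CPM against 565 and 721 CPM. Those of intermediate progenitors were lower in 4 of 4. Of 15 cell cycle genes, 7 were compared and 5 were lower, among them Top2a with 2 and 2 UMIs in all members. The filter let in 4 of these 5 only with a difference of that size, as it did 2 of the lower apical and 1 of the lower intermediate progenitor genes. Over all genes compared, 7.98% were lower. Pcna and Cenpf differed by less than 2-fold.

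The main glutamate transporter gene was present at the level of excitatory neurons, and genes of GABA synthesis were close to 0. Slc17a6, the vesicular glutamate transporter VGLUT2, was at 131 (108 to 158) CPM in WT and 101 (83.8 to 121) CPM in cKO members, against 102 and 94.01 CPM in excitatory neurons and 22.1 and 16.9 CPM in GE-derived cells. Slc17a7 (VGLUT1) had 2 and 6 UMIs and Slc17a8 (VGLUT3) had 0 in both libraries. Gad1 and Gad2, which make GABA, had 2 and 0 UMIs in WT and 1 and 3 UMIs in cKO members, whereas Gad2 was at 591 and 564 CPM in GE-derived cells. The vesicular GABA transporter gene Slc32a1 had 0 UMIs.

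Some genes of axon growth and the cytoskeleton were higher, led by Gap43. Of 12 genes, 10 reached the level needed for the comparison, 4 were at least 2-fold higher and 1 at least 2-fold lower in both libraries. Over all genes compared, 7.46% were higher and 7.98% lower, and 1 lower gene of 10 is close to that share. Gap43, a growth cone protein, was at 2667 and 2202 CPM in WT and cKO members and 342 and 344 CPM in excitatory neurons, 8.03-fold above all other cells. Stmn2, a tubulin regulator, Ina, alpha-internexin, and Mapt, tau, were 2.48-fold, 2.89-fold and 2.07-fold higher. Dcx, a microtubule protein of migrating neurons, was lower, at 179 and 261 CPM against 587 and 539.7 CPM. The neurofilament genes Nefl and Nefm had 0 and 2 UMIs in WT and 0 and 5 in cKO members.

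Genes around Reelin, the ligand apart, were compared next. Of 13 genes, 11 reached the level needed for the comparison, 0 were at least 2-fold higher and 2 at least 2-fold lower in both libraries, against 7.46% and 7.98% of all genes compared, and 1 of those lower could pass the filter only with such a difference. The receptor genes Vldlr and Lrp8 were at 19.1 and 22.7 and 59.7 and 89.2 CPM in WT and cKO members against 26.2 and 29.6 and 145 and 142 CPM in all other cells. Lrp8 was 2-fold lower in the WT library alone. Dab1, the adaptor, was lower, at 217 and 203 CPM against 596 and 568 CPM in all other cells and 724 and 719.8 CPM in excitatory neurons. Adamts3, a protease that cleaves Reelin, was also lower, at 5.97 and 10.9 CPM against 85.5 and 103 CPM. Pafah1b1 (Lis1) and Ndel1, which act on the cytoskeleton in migration, differed by less than 2-fold.

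Guidance genes included both higher and lower ones. Of 21 genes, 19 reached the level needed for the comparison, 5 were at least 2-fold higher and 7 at least 2-fold lower in both libraries. All genes compared had shares of 7.46% and 7.98%, and 4 of those called here could pass the filter only with such a difference. Cxcr4, the receptor through which meningeal Cxcl12 holds these cells at the surface, was at 87.2 and 62.3 CPM in WT and cKO members and 3.12 and 3.77 CPM in all other cells. Plxnd1, a semaphorin receptor with a known role in Cajal-Retzius migration, was at 137 and 129 CPM against 7.86 and 11.7 CPM, and the netrin receptor Unc5b at 106 and 120.4 CPM against 5.38 and 3.999 CPM. The ligand gene Cxcl12 was itself 3.24-fold higher, and the ephrin gene Efna5 2.57-fold. The low set was Plxna2, Nrp1, Unc5d and the ephrin receptors Epha3, Epha4, Epha5 and Ephb1. Nrp1, a semaphorin co-receptor, was at 27.5 and 21.9 CPM against 319.6 and 252 CPM, and Epha5 at 161 and 186 CPM against 1501 and 1925 CPM. Robo1 and Robo2, Slit receptors, differed by less than 2-fold.

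Ion channel and receptor genes were more often higher than lower. Of 29 genes, 20 reached the level needed for the comparison, 7 were at least 2-fold higher and 2 at least 2-fold lower in both libraries, against 7.46% and 7.98% of all genes compared. Of those called, 1 (Grin1) could pass the filter only with such a difference. Cacna2d3, a second auxiliary calcium channel subunit, was at 529 and 434 CPM in WT and cKO members and 42.02 and 36.3 CPM in all other cells. Grin1, the obligatory NMDA receptor subunit, was at 74.05 and 63.1 CPM against 9.69 and 11.1 CPM, while the AMPA receptor subunits Gria2 and Gria3 were lower, with Gria2 at 139 and 149.9 CPM against 629.7 and 618 CPM. Cacna1a and Cacna1b, pore subunits of presynaptic calcium channels, were 2.80-fold and 2.35-fold higher, and the sodium channel genes Scn2a and Scn3b 2.72-fold and 3.20-fold. The chloride transporters Slc12a2 and Slc12a5 were at 26.3 and 31.99 and 1.19 and 4.21 CPM. Among 16 genes of the p53 family and cell death, 8 were compared and 1 was higher, the p53 target and cell cycle inhibitor Cdkn1a, at 82.4 and 79.99 CPM against 4.25 and 4.15 CPM. Cdkn1a could pass the filter only with such a difference, and 1 of 8 is near the 7.46% over all genes compared. Bax, which drives cell death, was at 383 and 344 CPM against 219 and 207 CPM, and Trp63 had 0 UMIs.

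The 15 named genes with the largest fold above all other cells were, in order, Lhx1, Fibin, Lhx1os, Calb2, Mab21l1, Ramp1, Car10, Ebf2, Syndig1l, Wnt4, Ndst4, Ebf3, Mia, Cacna2d2 and Thsd7b, from 826-fold down to 64.4-fold. Each of them was under the filter level in all other cells. Fibin, a secreted factor, was at 166 and 68.2 CPM in WT and cKO members, in 27 of 48 WT and 29 of 81 cKO members. Ramp1, a partner of the calcitonin-family receptors, was at 139.7 and 85.04 CPM, and the 3 richest WT members held 47.01% of its WT UMIs. Car10, a carbonic anhydrase-related protein, was at 499 and 376 CPM in members and 25.03 and 15.02 CPM in GE-derived cells. Wnt4, a Wnt ligand, was at 57.3 and 69.04 CPM, and Ndst4, an enzyme of heparan sulfate synthesis, at 103 and 237 CPM. Mab21l1 was at 54.9 and 67.4 CPM, Syndig1l at 94.3 and 88.4 CPM and Mia, a small secreted protein, at 136 and 67.4 CPM. Thsd7b, with thrombospondin repeats, was at 939 and 833 CPM in 41 of 48 WT and 75 of 81 cKO members. When the reference was GE-derived cells, the nearer log2 ratio of Car10 was 4.32 and that of Cacna2d2 4.21, below the 7.01 and 6.06 found against all other cells. With each cell given the same weight, the log2 ratio went from 9.69 to 8.90 for Lhx1, from 8.86 to 7.64 for Lhx1os, from 8.14 to 7.17 for Mab21l1 and from 7.72 to 7.09 for Ramp1.

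The 9 named genes with the largest fold below all other cells were Top2a, Pclaf, Dlgap1, Etl4, Hist1h1b, Ube2c, Gad2, Sox2ot and Creb5. Top2a, Pclaf, Hist1h1b and Ube2c belong to dividing cells, and Gad2 to interneurons. Dlgap1, a postsynaptic scaffold, was at 2.39 and 6.74 CPM in WT and cKO members, 93.8 and 72.5 CPM in excitatory neurons and 1081 and 1096 CPM in GE-derived cells. Sox2ot, a noncoding RNA that spans Sox2 so that its counts are less certain, was at 17.9 and 16.8 CPM in members and 19.8 and 29.5 CPM in excitatory neurons, so its difference lay with the other cells. Creb5, a transcription factor, was at 8.36 and 7.58 CPM in members and 140.5 and 174 CPM in all other cells, and Etl4 at 3.58 and 6.74 and 103 and 151 CPM. With each cell given the same weight, Hist1h1b went from a log2 ratio of -4.48 to -2.91. Against excitatory neurons, Sox2ot had a nearer log2 ratio of -0.14, and Gad2 was at 3.82 and 5.73 CPM in those neurons.

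The members varied in how much of each gene they held. Per 10000 UMIs of a cell, Nr2f2 ranged from 0 to 20.7 among WT members, where the median was 9.79, and from 0 to 30.2 among cKO members, where it was 11.4, and 2 members in each library lacked it. Nhlh2 had medians of 8.74 and 8.28 and was absent from 3 and 4 members. These 2 factors were thus found in nearly every member. Calb2 was more uneven, the median WT member having 4.42 and the median cKO member 2.07, with a highest value of 24.4 and 22.03, and no UMI in 5 of 48 and 25 of 81. Zic1 was absent from 13 WT and 26 cKO members and Ebf2 from 13 and 13. Kcnip4, a potassium channel partner chosen after its values were seen, spanned 0 to 149 in WT members and 0 to 31.4 in cKO members. For each of these genes the ranges of the 2 libraries overlapped.

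**Figure D3:**
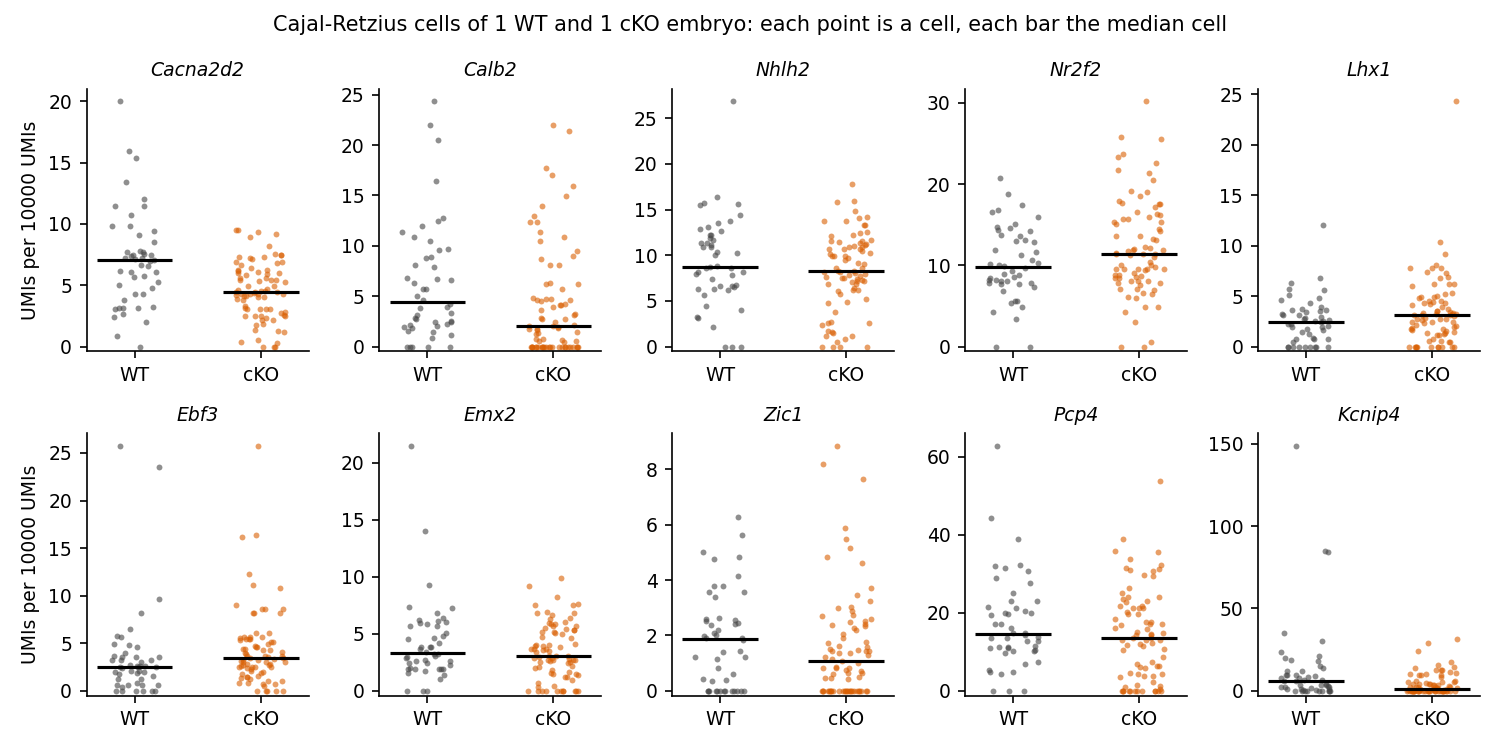
UMIs per 10000 UMIs (y) of 10 genes in each Cajal-Retzius cell of the WT (grey, 48 cells) and cKO library (orange, 81 cells), with the median cell as a bar. Nr2f2, Nhlh2 and Cacna2d2 are found in nearly all members, 25 and 31 cKO members lie at 0 for Calb2 and Kcnip4, and the cells of both libraries overlap in every panel.

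The share of Cajal-Retzius cells was 0.635% of WT cells (0.469 to 0.842, Clopper-Pearson) and 0.922% of cKO cells (0.733 to 1.15), and the 2 intervals overlapped. The ratio of the shares was 1.45 (1.004 to 2.12). By the cluster instead of the rule, the shares were 0.768% (58 cells) and 1.14% (100 cells). These cells lie at the surface and at the edges of the cortex, and a difference in genotype, sex, embryo or dissection cannot be told apart with 1 embryo each.

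The genotype comparison took genes with at least 100 UMIs in the members of both libraries together, without rule, sex-linked and mitochondrial genes. Across these 4033 genes, 32 (0.793%) were at least 2-fold higher and 19 (0.471%) at least 2-fold lower in the cKO members. The same genes differed 2-fold by genotype in 13 cases in excitatory neurons and 15 in GE-derived cells, sets with far more UMIs per gene. Many of the differences came from few cells. For 15 of the 32 higher genes, 3 cKO members held at least 50% of the cKO UMIs, and the same held in WT members for 3 of the 19 lower genes. Without the barcodes marked by Scrublet, 45 genes were higher and 18 lower.

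Syncrip was at 235 (204 to 271) CPM in WT and 287 (257 to 319) CPM in cKO members, a log2 ratio of cKO over WT of 0.29 (0.03 to 0.55), and it was found in 42 of 48 WT and 75 of 81 cKO members. In excitatory neurons the log2 ratio was 0.19 (0.17 to 0.22). The libraries count 3′ ends, and the deleted exons 2 to 4 lie away from the 3′ end of Syncrip (chromosome 9, 88447009 to 88482574, minus strand), so its level checks neither the deletion nor the label. Its close relative Hnrnpr was at 209 and 226 CPM with a log2 ratio of 0.11 (-0.17 to 0.39).

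The genes that define the cells differed by less than 2-fold between the libraries. Reln had a log2 ratio of cKO over WT of -0.10 (-0.15 to -0.05), Trp73 of -0.08 (-0.31 to 0.15), Ndnf of -0.24 (-0.42 to -0.07) and Lhx5 of 0.33 (0.05 to 0.61), which are descriptions because these genes chose the cells. Calb2 and Cacna2d2 were lower in the cKO members, by log2 ratios of -0.55 (-0.72 to -0.38) and -0.52 (-0.70 to -0.35), both under 2-fold. Lhx1, Ebf2, Ebf3 and Nr2f2 were slightly higher, at 0.30 (0.07 to 0.55), 0.43 (0.13 to 0.75), 0.44 (0.21 to 0.67) and 0.20 (0.08 to 0.33). Nr2f2 also differed in the other cells, with a log2 ratio of 1.33 in excitatory neurons and 0.88 in GE-derived cells. Of the 8 lineage factors with at least 100 UMIs, none reached 2-fold, and neither did any gene of the lists of regional origin (4 genes), patterning (8), the Reelin pathway (8), neuron maturation (10) or cell death (7). Their medians lay between -0.09 and 0.25, beside -0.02 over all genes compared. Of all genes compared, 0.793% were at least 2-fold higher and 0.471% lower. A count of 0 in lists this short is near that share and sets none of them apart. Guidance genes had a median of -0.09 over 14 genes with Unc5d alone past 2-fold, and channels and receptors one of -0.08 over 18 with Gria1 alone past it (-1.02), whereas the genes of excitatory identity had a median of 0.68 over 8, with Bcl11b and Sox5 more than 2-fold higher in the cKO members. The list of genes tied to the timing of neurogenesis had 6 of 10 genes with enough UMIs. Nedd4 had a log2 ratio of -0.19 (-0.41 to 0.03), Zbtb20 of -0.61 (-0.80 to -0.42), Nfix of -0.24 (-0.37 to -0.10) and Nfib of -0.08 (-0.15 to 0.00) in the members. In excitatory neurons the ratios of Nedd4, Zbtb20 and Nfix were -0.38, -0.34 and -0.29. Hmga2 had 0 UMIs in the members of both libraries, and Hes1 and Hes5 had 0 and 2 UMIs in WT and 6 and 21 in cKO members.

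The 10 named genes with the largest ratio in the cKO members were Grm8, Egfem1, Alcam, Nlgn1, Lrch1, Erbb4, Kirrel3, Tox, Rora and Bcl11b. Grm8, a metabotropic glutamate receptor gene, had 0 UMIs in 48 WT members and 145 UMIs in 17 of 81 cKO members. Of these cKO UMIs, 68.3% lay in 3 members. With the WT members set to 3 UMIs in all, Grm8 was 34.1-fold higher, a log2 ratio of 5.09. The counting interval of that ratio reached down to 4.77. Egfem1, with EGF-like domains, had 3 and 128 UMIs and a log2 ratio of 4.91 (3.33 to 7.21), and 112 of its cKO UMIs lay in 9 cells described below. Alcam, an adhesion molecule, had 8 and 114 UMIs and a log2 ratio of 3.33 (2.30 to 4.57), but 3 cKO members held 65.8% of its cKO UMIs. Without the Neurod-positive members, those with 5 or more UMIs of Neurod2 and Neurod6, the ratio was 2.28 for Alcam and 4.30 for Grm8, the latter with the WT members at 3 UMIs. Lrch1 was spread more evenly, over 15 of 48 WT and 42 of 81 cKO members, with a log2 ratio of 2.14 (1.39 to 2.97). Bcl11b (Ctip2), a deep-layer factor, had 44 and 194 UMIs with a ratio of 1.64 (1.16 to 2.14), and Rora, a nuclear receptor, a ratio of 1.66 (1.16 to 2.19). With each cell given the same weight the ratio of Rora was 0.87, under 2-fold, and without the Neurod-positive members that of Bcl11b was 0.97. Kirrel3, a synaptic adhesion gene, and Tox, a nuclear factor, had ratios of 1.83 (1.25 to 2.46) and 1.71 (0.98 to 2.51), with 65.8% and 59.1% of their cKO UMIs in 3 members. The ratio of Tox was 0.25 with each cell given the same weight, and that of Kirrel3 was 3.03 without the barcodes marked by Scrublet, 1.23 within the main cluster and 0.96 without the Neurod-positive members. Nlgn1, a synaptic adhesion gene, had a ratio of 2.57 (2.02 to 3.16), with 76.6% of its cKO UMIs in 3 members. The ratio of Nlgn1 was -0.26 without the members that held 5 or more UMIs of Neurod2 and Neurod6. Without those members, the number of genes at least 2-fold higher was 7 instead of 32, and the number at least 2-fold lower 13 instead of 19. Some markers of excitatory neurons were also higher in the cKO members. Their 6 genes summed to 611 CPM in WT and 1074 CPM in cKO members, with Sox5 at 117 and 359 CPM, a log2 ratio of 1.62 (1.30 to 1.95), and the most abundant of them in the WT members, Bhlhe22, at 276 and 291 CPM. Erbb4, a marker of GE-derived cells, had 16 and 98 UMIs, with 55.1% of the cKO UMIs in 3 members. The part of either cell type in the other ratios was not tested beyond leaving out those members.

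The 9 named genes with the smallest ratio were Unc5d, Kcnq5, Ptchd4, Ldlrad4, Cryab, Hdac8, Pid1, Fibin and Tmem158. Unc5d, a netrin receptor of upper-layer neurons, had 149 UMIs in WT and 31 in cKO members, and 3 WT members held 89.3% of the WT UMIs. Its ratio turned when the barcodes marked by Scrublet were left out, from -2.77 to 1.26, and was -0.18 without the Neurod-positive members. Kcnq5, a potassium channel gene, was found in 33 of 48 WT and 36 of 81 cKO members, at 379 and 135 CPM and a log2 ratio of -1.49 (-1.77 to -1.21). Cryab, a small heat shock protein, was at 109 and 42.1 CPM with a ratio of -1.37 (-1.90 to -0.85), and the deacetylase gene Hdac8 at 105 and 41.3 CPM with a ratio of -1.35 (-1.88 to -0.83). Ptchd4 and Pid1 had ratios of -1.48 (-1.92 to -1.06) and -1.29 (-1.78 to -0.81), and Ldlrad4 and Tmem158 of -1.37 (-1.89 to -0.86) and -1.14 (-1.56 to -0.72). Pid1 was under 2-fold with each cell given the same weight (-0.93), and Tmem158 without the barcodes marked by Scrublet (-0.75). Fibin, among the genes with the largest fold in the cell type itself, had a ratio of -1.28 (-1.70 to -0.88).

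**Figure D4:**
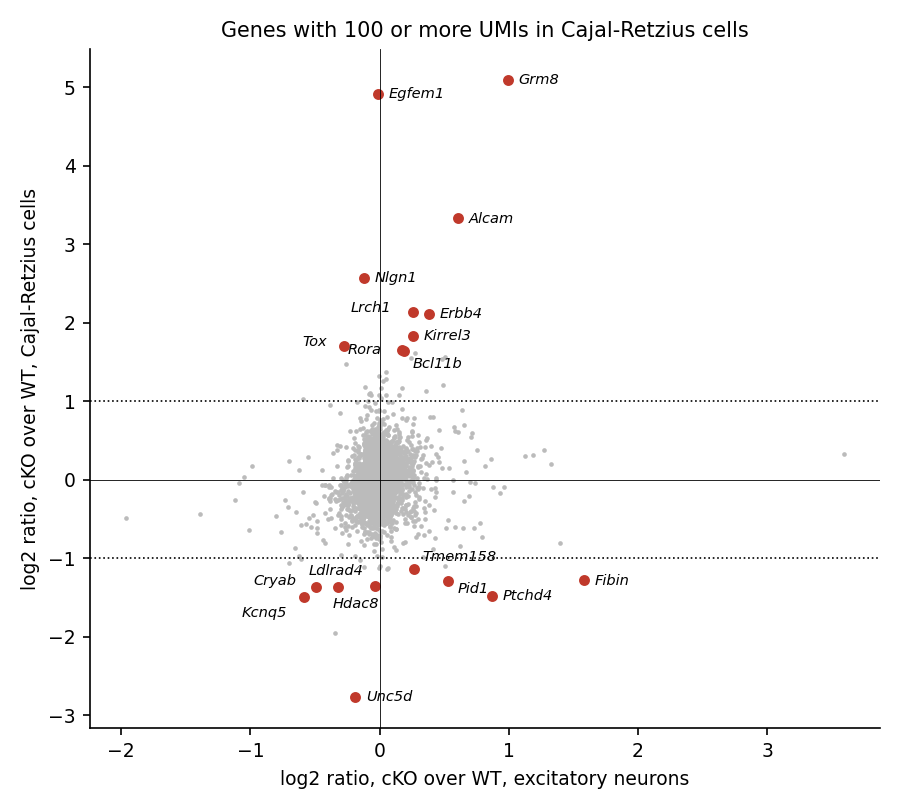
Each point is 1 of 4033 genes, plotted by its log2 ratio of cKO over WT in excitatory neurons (x) and in Cajal-Retzius cells (y), with the 19 named genes in red and 2-fold as dotted lines. Grm8 is drawn at 5.09, its value with the 0 WT UMIs set to 3. In excitatory neurons the named genes other than Fibin (1.59) lie between -0.58 and 0.99.

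Grm8 and Egfem1 pointed to a small group of cKO members, which was picked after their values were seen and is given as a description. At least 5 UMIs of the 2 genes together were found in 9 members, all of the cKO library. No WT member could reach this limit, because the 48 WT members held 0 Grm8 and 3 Egfem1 UMIs in all. Their absence from the group thus follows from the choice of the genes. Grm8 had a UMI in 17 of 81 cKO members (20.99%, median depth 14435 UMIs) and in 2.14% of cKO excitatory neurons (median depth 12808). Among all cells outside the type, the share with a Grm8 UMI was 2.54% in the WT and 4.46% in the cKO library. The 9 cells had a median of 12043 UMIs, 8 of them lay in the main cluster, none was marked by Scrublet, and 3 held 5 or more UMIs of Neurod2 and Neurod6. Neurod6 was at 312 and 134 CPM in the 9 cells and the other cKO members, and the part of excitatory neurons in what follows was not tested. Lineage genes were in part close to those of the other 72 cKO members and in part not. Reln was at 5929 and 6612 CPM, Trp73 at 261 and 310.5 CPM, Lhx1 at 428 and 321 CPM, and Nr2f2 at 994 and 1218 CPM. Nhlh2 was at 283 and 962 CPM, Lhx5 at 145 and 263 CPM, Cacna2d2 at 269 and 489 CPM, Zic1 at 58.1 and 170.5 CPM and Zic2 at 65.3 and 171 CPM, all lower in the 9 cells, while Ebf3 was higher at 631 and 360.0 CPM. The counting intervals of these 6 ratios lay off 0, as did those of Reln and Nr2f2, while those of Trp73 and Lhx1 included 0. Larger differences were found in other genes. Calb2 was at 65.3 against 517 CPM, with UMIs in 1 of 9 cells, Ndnf at 94.3 against 565 CPM, and Pcp4, a calmodulin regulator, at 232 against 1702 CPM. Fibin and Mia had 0 UMIs in these cells against 81 and 80 in the others. The channel gene Trpm3 was at 1263 against 122 CPM, and Unc5c, a netrin receptor, at 508 against 16.2 CPM. Without these cells, 11 genes were at least 2-fold higher and 15 at least 2-fold lower in the cKO members. Grm8 itself then had a log2 ratio of 2.00 with the WT members at 3 UMIs, and Egfem1 one of 2.09. These 2 ratios had to fall, because the 9 cells were picked by these genes. Without the 9 cells the ratio was 1.69 for Nlgn1 and 1.197 for Erbb4.

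**Figure D5:**
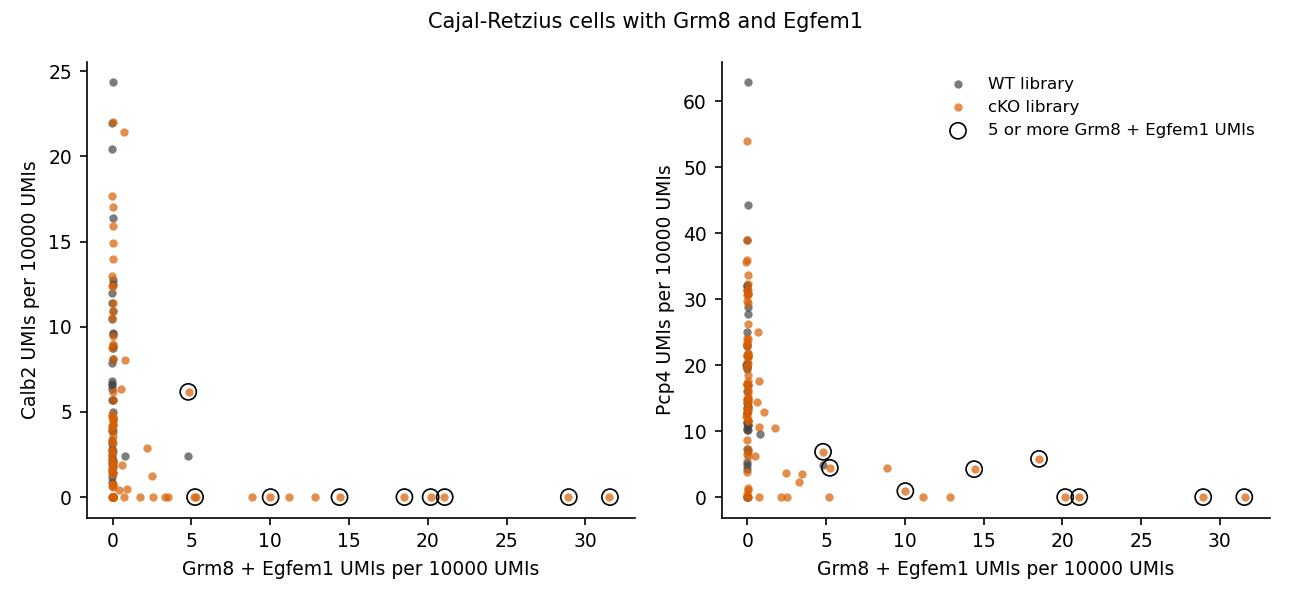
Each point is a Cajal-Retzius cell of the WT (grey) or cKO library (orange), plotted by its Grm8 and Egfem1 UMIs per 10000 UMIs (x) and its Calb2 (left) or Pcp4 UMIs per 10000 (right), with rings around the 9 cells that held 5 or more UMIs of Grm8 and Egfem1. Only 1 ringed cell has Calb2, and the other cells with a high x value but no ring hold fewer than 5 UMIs of the 2 genes at a low depth.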

How the data were processed

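The sources name a 10x Genomics Chromium 3′ kit (v3.1), Cell Ranger (7.0.0 in the file headers), Seurat and mm10. What the authors deposited are unnormalized counts of UMIs, 100172392 UMIs in 8289 WT barcodes and 111313526 in 9659 cKO barcodes. Excitatory neurons were other kept cells with at least 5 Neurod2 and Neurod6 UMIs and at most 1 Dlx UMI, and GE-derived cells those with at least 5 Dlx UMIs. UMIs were summed per set and library and divided by the set's total (CPM). Intervals were exact (Poisson, Clopper-Pearson, and conditional binomial for ratios), and a count of 0 was set to 3 in ratios. Clusters came from Seurat 5.3.0 (R 4.3.3; resolution 0.8, 30 components) without rule, sex-linked and mitochondrial genes, and doublets from Scrublet in scanpy 1.11.5. Sums and ratios were tested on simulated data. Alternatives moved the limits of the rule, the level filters and the reference cells, and removed likely doublets. Named genes were all markers, lineage factors and transmitter genes, up to 6 of each other list, and the genes at the ends of the 2 rankings, without predicted, ribosomal, hemoglobin, sex-linked and mitochondrial genes; the 2 embryos differed in sex. Members and lists were chosen with earlier results of these data known. Gene positions are from GENCODE vM21. The bulk RNA-seq table was not used here, and a few genes are not reported here.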

Additional observations from a re-analysis of the deposited data

Results flagged for a closer look

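For 4 named genes the ratio of cKO over WT had opposite signs in Cajal-Retzius cells and in another set of cells, at least 2-fold in the former and at least 0.5 on the log2 scale in the latter, with both counting intervals off 0. The difference was not tested, since each genotype was 1 embryo, and Kcnip4 and Trpm3 were named after their values were seen. Pid1 had a log2 ratio of -1.29 in Cajal-Retzius cells and 0.53 in excitatory neurons. Ptchd4 had -1.48 in Cajal-Retzius cells and 0.87 in excitatory neurons. Kcnip4 had -1.11 in Cajal-Retzius cells and 0.60 in GE-derived cells. Trpm3 had 1.56 in Cajal-Retzius cells and -0.69 in GE-derived cells, and 174 of its cKO UMIs lay in the 9 cells with Grm8 and Egfem1. The other 72 cKO members held 128, at 122 CPM against 85.99 CPM in the WT members.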

How the results depend on the processing

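The shares of Cajal-Retzius cells stayed within their main intervals under every alternative tried. The genes that differed from all other cells numbered 738 higher and 812 lower with a filter of 10 CPM, and 161 and 176 with 100 CPM, in which more or fewer genes were compared. By genotype, a filter of 50 UMIs gave 82 higher and 53 lower genes and a filter of 200 UMIs gave 11 and 7. There were 2 alternatives added after the data were seen. Without the members that held 5 or more UMIs of Neurod2 and Neurod6, 7 genes were higher and 13 lower. Without those that held 5 or more of Grm8 and Egfem1, 11 were higher and 15 lower. The ratio of cKO over WT turned for Unc5d (1.26) without Scrublet doublets and for Nlgn1 (-0.26) without the Neurod-positive members. Ratios came under 2-fold for Rora (0.87), Tox (0.25) and Pid1 (-0.93) with each cell given the same weight, for Tmem158 without Scrublet doublets (-0.75) and with at least 4 UMIs of Trp73, Lhx5 and Ndnf (-0.93), for Unc5d (-0.18), Kirrel3 (0.96), Bcl11b (0.97) and Tmem158 (-0.89) without the Neurod-positive members, and for Rora (0.97) and Tmem158 without the Grm8 and Egfem1 cells. In all, 65 values of single genes left their counting intervals, and the cause was not tested. The other 82 summary values stayed within 1.5 times or within their intervals. Against all other cells, every gene ratio kept its direction, and with each cell given the same weight those of Lhx1, Lhx1os, Calb2, Mab21l1, Ramp1, Dlgap1 and Hist1h1b came closer to 0 by over 1.5 times. So did Lhx1 with at least 20 Reln UMIs (9.02) or at least 4 UMIs of Trp73, Lhx5 and Ndnf (9.05), and Pclaf without Scrublet doublets (-4.00). Some moved away from 0, such as Lhx1os (9.56) with at least 2000 genes per barcode. At resolutions 0.4 and 1.2 the main cluster held the same number of members, 126. A gene at the 100-UMI limit has a wide interval, so small differences in such genes were not detectable at this depth. No paired analysis was possible because no result comes from a test and each genotype has 1 library.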

Other observations

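The 32 cells that shared the main cluster without meeting the rule carried the genes of the cell type at a low depth, which describes a cluster built on these genes. Lhx1 was at 219 CPM in them and 0.174 CPM in the remaining cells, Nhlh2 at 828 and 17.5 CPM, and Calb2 at 461 and 0.796 CPM. Reln was present in 27 of the 32, at 1 to 9 UMIs in 23 and at 10 or more in 4, and 2 had 2 or more Dlx UMIs.

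Among 8 genes that mark the diencephalon and neighbouring regions, only Lhx9 reached the level needed for the comparison, which it could do only with a difference of at least 2-fold. It was at 51.4 and 58.1 CPM in WT and cKO members against 11.3 and 5.09 CPM in all other cells. 6 of the 8, among them Otp, Sim1 and Gbx2, had 0 UMIs in the WT members.

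Rgs5, a regulator of G protein signalling best known from pericytes, was at 70.5 and 52.2 CPM in the WT and cKO members against 8.47 and 3.23 CPM in excitatory neurons. Of the 6 pericyte genes, 3 were at 0 in the members, namely Pdgfrb, Kcnj8 and Abcc9.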
